A study of Equus caballus with 9 samples.

Results

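Interferon-stimulated genes are the genes that a cell switches on when it senses interferon. They were followed here in 9 Affymetrix expression arrays of equine plastic-adherent cells. The set was a list of 43 gene symbols, and a gene counted as measured when the platform annotation gave a probe set that named it alone. This held for 38 of the 43, of the 16661 genes named by a single-gene probe set and the 30559 probe sets in all. DDX58 was found under its newer symbol RIGI. IFIT1, IFIT2, IFIT5, GBP2 and TRIM25 were not analysed here. Each measured gene had 1 probe set.

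The study set 3 groups of 3 arrays side by side, to compare mesenchymal cells recovered from blood after electroacupuncture with those of established sources. EA-ADSC is the labels' name for cells grown from peripheral blood mononuclear cells of horses bled 2 h after the procedure. Electroacupuncture applies a mild electric current through needles set at acupuncture points. AD-MSC were grown from tailhead fat, and BM-MSC from bone marrow, both of untreated control horses. All cells were isolated over Ficoll and cultured for 96 h with 15% fetal bovine serum, and the attached cells gave the RNA. No allele, strain or age is given in the sources used here, and the cells are primary cultures without a sort for a surface marker in the labels. Tissue and treatment change together between EA-ADSC and either control group, AD-MSC and BM-MSC differ in tissue, and the labels name different horses for EA-ADSC and BM-MSC and none for AD-MSC, so the parts of tissue, treatment and horse cannot be told apart.

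Interferons are secreted proteins that warn neighbouring cells of infection. Type I interferons bind the receptor pair IFNAR1 and IFNAR2, whose kinases JAK1 and TYK2 activate a complex that includes STAT2 and IRF9 and binds promoters of antiviral genes. Interferon gamma, made mainly by T and NK lymphocytes, acts through IFNGR1 and IFNGR2, and in mesenchymal stromal cells it is known to raise chemokines and molecules that restrain T cells. The roles given below are those known from human or mouse.

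Values are normalized log2 intensities as deposited, on a scale that ran from 0.86 to 13.56 over all probe sets with a median of 4.62. A difference of 1 is therefore a 2-fold difference. Array medians lay between 4.56 and 4.66. The brightness of different probe sets cannot be compared, and 12 of the 38 genes had a mean below the median of all values. Whether a dim probe set was above background was not determined, so a fold against arrays below that median holds on the deposited scale alone. Precision is limited by the 3 arrays per group.

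One array stood apart in these genes. BM-MSC replicate 3 was the highest of all 9 arrays for 34 of the 38 interferon-stimulated genes, 89.5% of them, whereas it was highest for 8% of all probe sets. It lay more than 1 above the mean of BM-MSC replicates 1 and 2 for 32 of the 38 genes, against 2% of all probe sets, and more than 2 above it for 24 genes, against 0.458%. The median of this gap was 2.34 over the 38 genes, with quartiles of 1.77 and 3.62, and -0.02 over all probe sets. Among the 100 probe sets with the widest gap on this array, all 2.36 or more, 18 were genes of the set, which is 47.4% of the set beside 0.327% of all probe sets, and CXCL10 had the widest gap on the whole array. The exceptions were ISG20, RSAD2 and USP18, highest on AD-MSC replicate 3, and OAS3, highest on BM-MSC replicate 1. In bulk cultures such as these, more cells of a type and more RNA per cell cannot be told apart.

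Over the whole table the same array correlated with its group about as the other arrays did with theirs. Its correlation with BM-MSC replicates 1 and 2 across probe sets was 0.975 with each, and these correlated at 0.982 with each other. Within EA-ADSC the correlations ran from 0.970 to 0.978, and within AD-MSC from 0.961 to 0.968. Such values also reflect the unlike brightness of probe sets, and none between groups are given here. Over all probe sets the gap of BM-MSC replicate 3 ran from -7.18 to 7.74, and the upper end was CXCL10. The lower end lay outside the set, whose lowest gap on this array was 0.01. On the other arrays the lowest gap over all probe sets was -5.15 and the highest 5.24. The mean level of the 38 genes was 4.87, 4.67 and 4.61 on the EA-ADSC arrays and 5.18, 4.95 and 5.18 on the AD-MSC arrays. On BM-MSC replicates 1 and 2 it was 5.23 and 5.22, and on BM-MSC replicate 3 it was 7.81. No other array was set off in this way: the median gap of the 38 genes to the other arrays of the same group lay between -0.09 and 0.15 for the EA-ADSC arrays and between -0.19 and 0.13 for the AD-MSC arrays. The counts and the leading genes of the comparisons with BM-MSC are therefore given with and without replicate 3.

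**Figure D1:**
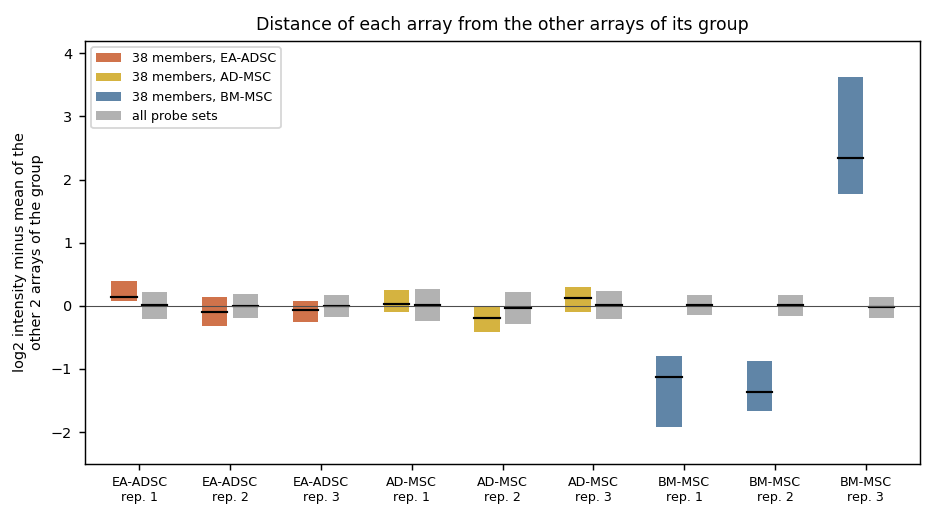
Log2 gap of each array to the mean of the other arrays of its group, for the 38 interferon-stimulated genes and for all probe sets (boxes from lower to upper quartile, line at the median). The genes' median gap on BM-MSC replicate 3 is 2.34, while on the EA-ADSC and AD-MSC arrays it lies between -0.19 and 0.15.

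The sensors and nucleic acid enzymes made up 11 genes, of which 9 were highest on BM-MSC replicate 3, with a median gap of 1.90. IFIH1 encodes MDA5, a cytosolic sensor of double-stranded RNA. It was at 3.79, 3.76 and 3.29 in EA-ADSC, at 4.63, 4.14 and 4.51 in AD-MSC and at 4.42, 4.28 and 9.21 in BM-MSC. The third BM-MSC value was 29-fold above the mean of the first pair, and the EA-ADSC arrays lay below all arrays of both other groups. DDX58, the RNA sensor RIG-I, was 11.6-fold higher on BM-MSC replicate 3 than on the other BM-MSC arrays, and DHX58, the related helicase LGP2 that tunes these sensors, was 1.86-fold higher.

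The oligoadenylate synthetases make a messenger molecule that activates RNase L, which cuts RNA. OAS1 was at 6.49, 5.85 and 5.82 in EA-ADSC, at 7.04, 6.92 and 7.23 in AD-MSC and at 7.18, 7.33 and 9.60 in BM-MSC. OAS2 was at 5.02, 4.31 and 5.23 in EA-ADSC, at 5.99, 6.15 and 6.56 in AD-MSC and at 5.70, 6.16 and 8.12 in BM-MSC. In both genes every EA-ADSC array was below every array of the other groups. OASL, a family member without synthetase activity in human, was 3.40-fold higher on BM-MSC replicate 3, whereas OAS3 was only 1.01-fold higher there.

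SAMD9, a host factor that restricts poxviruses, was at 4.32, 4.11 and 4.13 in EA-ADSC, at 5.49, 6.32 and 5.23 in AD-MSC and at 4.57, 4.69 and 7.95 in BM-MSC. The AD-MSC arrays lay above both EA-ADSC and BM-MSC replicates 1 and 2, without overlap. EIF2AK2, the kinase PKR that stops translation on sensing double-stranded RNA, was at 5.32, 5.43 and 5.43 in EA-ADSC, at 5.34, 5.67 and 5.63 in AD-MSC and at 5.43, 5.20 and 7.21 in BM-MSC. ISG20, an exonuclease, was at 5.68, 5.35 and 5.68 in EA-ADSC, at 5.73, 5.62 and 6.15 in AD-MSC and at 5.68, 5.57 and 5.75 in BM-MSC. These genes had overlapping groups once BM-MSC replicate 3 was left aside, except for SAMD9, and ISG20 was one of the genes that the array left nearly unmoved. ADAR, which edits double-stranded RNA, was 1.86-fold higher on BM-MSC replicate 3.

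IFIT3 was the single measured gene of the IFIT family, whose proteins bind viral RNA. It was at 2.98, 3.00 and 2.74 in EA-ADSC, at 3.26, 3.32 and 3.41 in AD-MSC and at 3.26, 3.61 and 8.13 in BM-MSC. All arrays but BM-MSC replicate 3 lay below the median of all values, and that array was 25.9-fold above the other BM-MSC arrays.

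Among the 6 measured membrane and GTPase effectors, 5 were highest on BM-MSC replicate 3. MX1 is a dynamin-like GTPase that traps viral nucleocapsids. It was at 5.60, 4.52 and 4.45 in EA-ADSC, at 3.79, 3.60 and 4.08 in AD-MSC and at 5.47, 5.90 and 9.33 in BM-MSC. CMPK2, a mitochondrial nucleotide kinase, was at 5.55, 5.37 and 5.53 in EA-ADSC, at 4.98, 4.63 and 5.11 in AD-MSC and at 5.80, 6.02 and 7.99 in BM-MSC. In both genes AD-MSC was the lowest group, below all arrays of EA-ADSC and BM-MSC. BST2, or tetherin, which holds budding virus at the cell surface, was 16.6-fold higher on BM-MSC replicate 3 than on the other BM-MSC arrays. RTP4, a receptor chaperone, was 3.36-fold and MX2, a relative of MX1, 2.44-fold higher there. RSAD2, or viperin, an enzyme that makes an antiviral nucleotide, stayed between 3.59 and 4.05 on all 9 arrays.

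The ISG15 system attaches a ubiquitin-like protein to others, and 4 of its 5 measured genes were highest on BM-MSC replicate 3, with a median gap of 3.56. ISG15, the modifier itself, was at 7.25, 7.25 and 7.11 in EA-ADSC, at 7.16, 6.64 and 7.23 in AD-MSC and at 8.22, 7.99 and 11.86 in BM-MSC. All BM-MSC arrays lay above all others, and replicate 3 was 13.4-fold above replicates 1 and 2. UBA7, the enzyme that activates ISG15, was at 4.18, 3.63 and 3.97 in EA-ADSC, at 4.27, 4.29 and 3.85 in AD-MSC and at 4.27, 4.58 and 5.65 in BM-MSC. HERC5, the main ligase for ISG15 in human cells, was at 2.86, 2.58 and 2.93 in EA-ADSC, at 2.96, 2.84 and 2.69 in AD-MSC and at 3.52, 3.14 and 5.55 in BM-MSC. HERC6, which fills that role in mouse, was 13.2-fold higher on BM-MSC replicate 3.

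USP18 removes ISG15 from proteins and also blocks the type I interferon receptor. It was at 3.30, 3.76 and 3.61 in EA-ADSC, at 7.92, 6.46 and 8.23 in AD-MSC and at 4.27, 4.53 and 7.96 in BM-MSC. AD-MSC was high on all 3 arrays, EA-ADSC was low on all 3, and BM-MSC held both a low pair and a high array. With all arrays USP18 was the sole gene of the set in which AD-MSC had a higher mean than BM-MSC by more than 1, and without BM-MSC replicate 3 SAMD9, at 1.05, was another.

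The 4 transcription factors were all highest on BM-MSC replicate 3. IRF9, the DNA-binding part of the STAT complex, was at 6.37, 6.00 and 5.89 in EA-ADSC, at 6.35, 5.82 and 6.35 in AD-MSC and at 6.91, 6.91 and 8.73 in BM-MSC. IRF1, a factor induced strongly by interferon gamma, was at 4.16, 4.38 and 4.65 in EA-ADSC, at 5.16, 4.19 and 4.77 in AD-MSC and at 4.65, 4.65 and 8.80 in BM-MSC. STAT2, IRF9's partner, was at 5.10, 4.74 and 5.29 in EA-ADSC, at 4.83, 4.87 and 4.83 in AD-MSC and at 4.94, 4.97 and 6.73 in BM-MSC. For IRF1 and STAT2, BM-MSC replicates 1 and 2 lay within or at the edge of the EA-ADSC range, while for IRF9 they lay above both other groups. IRF7, which amplifies type I interferon production, was 5.05-fold higher on BM-MSC replicate 3 than on replicates 1 and 2.

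PARP9 and DTX3L form a complex that modifies proteins at interferon target genes, PARP14 is a related enzyme, and PML builds nuclear bodies. All 4 were highest on BM-MSC replicate 3, where the gap was 5.20-fold for DTX3L and 5.01-fold for PARP14. PARP9 was at 4.60, 4.54 and 4.59 in EA-ADSC, at 5.93, 5.64 and 6.11 in AD-MSC and at 5.41, 5.41 and 8.59 in BM-MSC. The EA-ADSC arrays had the smallest spread of EA-ADSC over the set, with an SD of 0.04 (n = 3), and lay below all the others. PML was at 5.04, 5.04 and 4.81 in EA-ADSC, at 4.91, 4.79 and 5.04 in AD-MSC and at 5.04, 5.08 and 5.50 in BM-MSC, the narrowest pattern of these 4.

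The other 7 genes were all highest on BM-MSC replicate 3, with a median gap of 3.01. IFI44, an interferon-induced cytoplasmic protein, was at 5.02, 4.25 and 4.04 in EA-ADSC, at 4.90, 5.06 and 5.32 in AD-MSC and at 6.19, 6.30 and 10.02 in BM-MSC. Its relative IFI44L was at 4.79, 3.80 and 5.28 in EA-ADSC, at 3.84, 4.52 and 5.15 in AD-MSC and at 5.86, 6.62 and 10.30 in BM-MSC. In both, BM-MSC replicates 1 and 2 already lay above every array of the other groups.

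IFI6, a membrane protein that limits flavivirus replication in human cells, was at 9.86, 9.58 and 9.34 in EA-ADSC, at 10.76, 10.17 and 10.68 in AD-MSC and at 10.20, 10.20 and 12.07 in BM-MSC. IFI35, a leucine zipper protein, was at 5.50, 6.33 and 5.91 in EA-ADSC, at 7.28, 7.89 and 7.46 in AD-MSC and at 6.98, 6.72 and 9.86 in BM-MSC. Here EA-ADSC was below all other arrays. CXCL10, a chemokine that draws T and NK cells through CXCR3, was at 3.99, 3.98 and 2.37 in EA-ADSC, at 2.56, 2.14 and 2.15 in AD-MSC and at 3.90, 4.10 and 11.74 in BM-MSC. The gap of BM-MSC replicate 3 to replicates 1 and 2 was 7.74 on the log2 scale, while replicates 1 and 2 lay below the median of all values, as did EA-ADSC and AD-MSC. XAF1, a protein that promotes apoptosis, was 7.73-fold and EPSTI1, a gene induced by interferon in epithelium, 5.98-fold higher on BM-MSC replicate 3.

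**Figure D2:**
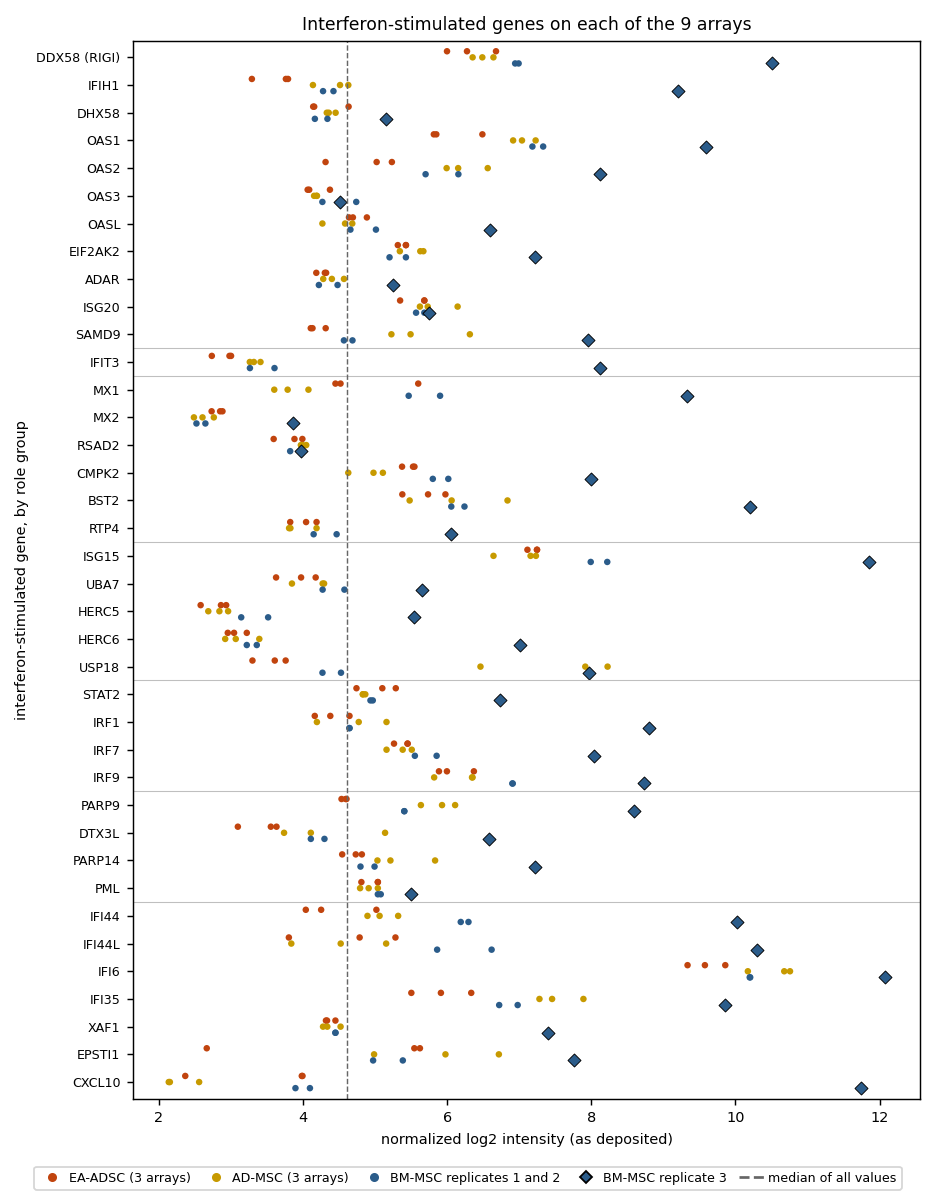
Normalized log2 intensity (horizontal axis) of the 38 measured interferon-stimulated genes (rows, in role groups) on each of the 9 arrays, with BM-MSC replicate 3 as diamonds and the median of all values as a dashed line. The diamond is the rightmost point in 34 rows, and BM-MSC replicates 1 and 2 differ by a median of 0.19.

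The spread of these genes was wide in BM-MSC and ordinary in the other groups. The median SD of the 38 genes was 0.22 in EA-ADSC, where all probe sets had 0.20, and 0.24 in AD-MSC, where all probe sets had 0.25. In BM-MSC it was 1.36, against 0.17 for all probe sets, and 0.14 without replicate 3, against 0.13. BM-MSC replicates 1 and 2 differed by a median of 0.19 over these genes and by 0.18 over all probe sets. The median standard error of a difference between groups was 0.57 for the 38 genes and 0.19 for all probe sets. Since limma draws 1 spread per probe set from all 9 arrays, this error also enters the comparison of EA-ADSC with AD-MSC.

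Post-electroacupuncture blood cells were compared with bone marrow cells first. All 38 interferon-stimulated genes had a lower mean in EA-ADSC than in BM-MSC, with differences from -0.10 to -3.13 and a median of -1.43, whereas 48.3% of all probe sets had a lower mean and their median was 0.01. The difference was below -1 for 25 of the 38, beside 1.95% of all probe sets, and without BM-MSC replicate 3 for 4, OAS1, OAS2, IFI44 and IFI44L, beside 2%. None of the 38 passed limma's test at an adjusted p under 0.05, beside 0.815% of all probe sets, and the adjusted p-values lay between 0.187 and 0.920. At an unadjusted p under 0.05 limma gave 13 of the 38, beside 11.7% of all probe sets in either direction, all lower in EA-ADSC, beside 5.63% on that side. The 3 EA-ADSC arrays all lay below the 3 BM-MSC arrays for 20 of the 38 genes, or 52.6%, beside 8.87% of all probe sets, and all above them for 0, beside 9.52%.

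OAS1 had the smallest p of the set, with a difference of -1.99 ± 0.57 (SE), 3.96-fold lower in EA-ADSC, and an adjusted p of 0.187. IFI44 differed by -3.07 ± 0.90 (8.37-fold, adjusted p = 0.199), OAS2 by -1.80 ± 0.57 (adjusted p = 0.234) and IRF9 by -1.43 ± 0.46 (adjusted p = 0.244). IFI44L differed by -2.97 ± 1.03 (adjusted p = 0.288) and UBA7 by -0.91 ± 0.34 (adjusted p = 0.333). IFI35 differed by -1.93 ± 0.73 (adjusted p = 0.338) and IFI6 by -1.23 ± 0.47 (adjusted p = 0.344). None of these differences passed the test across all probe sets by limma, and without BM-MSC replicate 3 they were -1.07 for OAS2, -0.82 for IRF9, -1.61 for IFI44L, -0.50 for UBA7, -0.93 for IFI35 and -0.61 for IFI6.

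Without BM-MSC replicate 3 the differences of most genes were smaller, and DHX58, EIF2AK2, MX2 and STAT2 changed sign. The mean was lower in EA-ADSC for 34 of the 38, beside 49.5% of all probe sets, and the median difference was -0.48, beside 0.00 for all probe sets. Limma again called 0 of the 38, beside 0.445% of all probe sets, and at an unadjusted p under 0.05 it gave 14, all lower in EA-ADSC, beside 4.95%. Leaving out an array cannot end a separation, so the 20 genes with EA-ADSC arrays all below the BM-MSC arrays stay by construction, and 0 were added, while the share of all probe sets was 13.9% with 3 arrays against 2. MX2 alone had them all above, beside 13.6%. IFI44 came closest, at -1.81 ± 0.29 and an adjusted p of 0.0601, followed by OAS1 at -1.21 ± 0.23 with 0.0952 and PARP9 at -0.83 ± 0.16 with 0.106. By role, the median difference was -0.68 with all arrays and -0.33 without replicate 3 for sensors and nucleic acid enzymes, -1.46 and -0.54 for the ISG15 system, and -1.93 and -0.61 for the group that holds IFI44 and CXCL10.

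**Figure D3:**
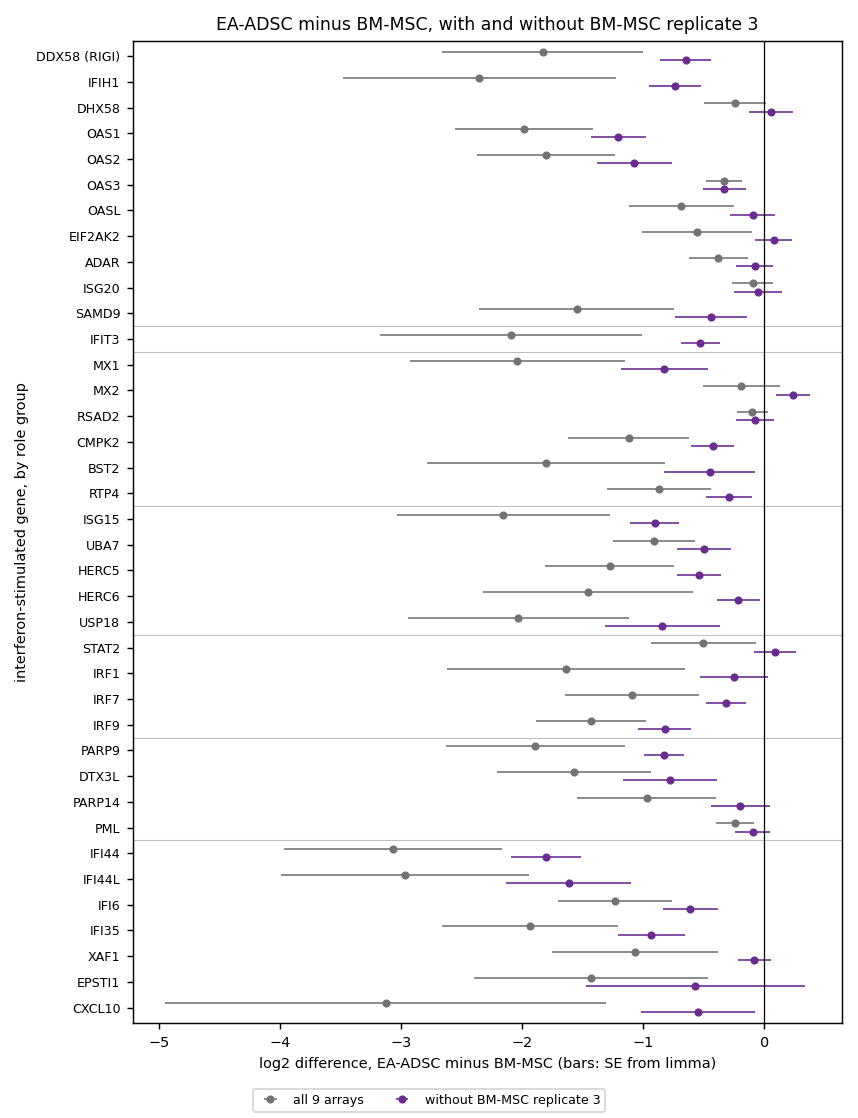
Log2 difference EA-ADSC minus BM-MSC (horizontal axis, bars are limma's standard errors) for the 38 interferon-stimulated genes, with all 9 arrays in grey and without BM-MSC replicate 3 in purple. All grey points lie below 0, and most purple points lie closer to 0 with shorter bars, 34 of them below 0.

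Against the other control cells, AD-MSC, the genes went both ways. The median difference EA-ADSC minus AD-MSC was -0.17 over the 38 genes and -0.02 over all probe sets, with a range from -3.98 to 1.16, and 27 of the 38 had a lower mean in EA-ADSC, beside 53.2% of all probe sets. The difference was below -1 for 7 of the 38, beside 3.51%. Limma called 1 of the 38 at an adjusted p under 0.05, beside 6.92% of all probe sets in either direction and 3.43% lower in EA-ADSC, so the share is no larger than the background. That gene, USP18, fell to 3.56 ± 0.24 in EA-ADSC, against 7.54 ± 0.94 in AD-MSC (SD, n = 3 each), a difference of -3.98 ± 0.91 (SE), 15.8-fold, with an adjusted p of 0.0367. At an unadjusted p under 0.05 OAS2 joined it, which makes 2 of 38 beside 21.2% of all probe sets, or 11.4% on the lower side. The USP18 call did not hold when any single EA-ADSC array, AD-MSC replicate 1 or AD-MSC replicate 3 was left out, with adjusted p-values between 0.0907 and 0.115, or with array weights, at 0.0629.

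Non-overlap of the arrays was a looser rule than the adjusted test, for the 38 genes and for all probe sets alike. EA-ADSC lay wholly below AD-MSC for 11 of the 38, beside 12.7% of all probe sets: IFIH1, OAS1, OAS2, SAMD9, IFIT3, USP18, PARP9, DTX3L, PARP14, IFI6 and IFI35. EA-ADSC lay wholly above AD-MSC for MX1 and CMPK2, 2 of the 38, beside 10.8%. OAS2 differed by -1.38 ± 0.57 (adjusted p = 0.206), IFI35 by -1.63 ± 0.73 (adjusted p = 0.246) and IFI6 by -0.94 ± 0.47 (adjusted p = 0.294). SAMD9 differed by -1.49 ± 0.80 (adjusted p = 0.336), OAS1 by -1.01 ± 0.57 (adjusted p = 0.361) and PARP9 by -1.31 ± 0.74 (adjusted p = 0.362). ISG20 was at -0.26 ± 0.17 with an adjusted p of 0.427.

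The standard error of these differences rests in part on the BM-MSC arrays. Without BM-MSC replicate 3 the differences between EA-ADSC and AD-MSC are the same by construction, while their median standard error was 0.18 in place of 0.57. Limma then called 7 of the 38, beside 5.57% of all probe sets, and all 7 were lower in EA-ADSC, beside 2.76% on that side: OAS1 (adjusted p = 0.0331), OAS2 (0.0320), SAMD9 (0.0218), USP18 (0.00329), PARP9 (0.00363), IFI6 (0.0400) and IFI35 (0.0124). With the 6 arrays of these groups fitted alone it called 4, namely USP18, PARP9, IFI35 and SAMD9, beside 3.37% of all probe sets. At an unadjusted p under 0.05 without BM-MSC replicate 3, 12 of the 38 were lower in EA-ADSC, beside 10.8% of all probe sets, and MX1, CMPK2 and CXCL10, 3 of the 38, were higher, beside 9.39%. At an adjusted p under 0.05 limma called 0 of the 38 higher, beside 2.81%. BM-MSC replicate 3 was singled out because it was high in these same genes, which was not so for most probe sets. In every comparison the counts without it are therefore not on an equal footing with the shares over all probe sets.

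**Figure D4:**
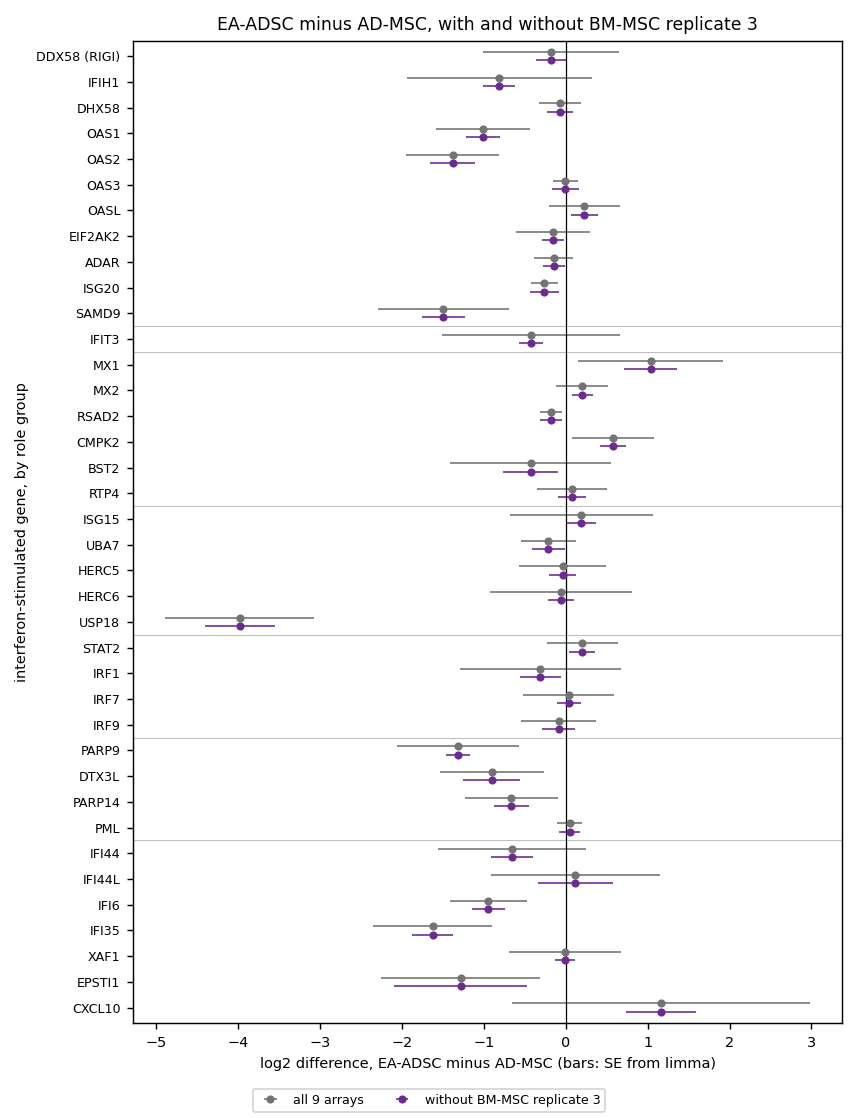
Log2 difference EA-ADSC minus AD-MSC (horizontal axis, bars are limma's standard errors) for the 38 interferon-stimulated genes, with the spread taken from all 9 arrays in grey and without BM-MSC replicate 3 in purple. Both sets of points coincide, USP18 lies farthest left at -3.98, and the purple bars are shorter for most genes.

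The untreated cell types were set against each other as the third comparison, which shares its BM-MSC arrays with the first. AD-MSC had a lower mean than BM-MSC for 35 of the 38 genes, beside 44.8% of all probe sets, with a median difference of -0.81, beside 0.04. The difference was below -1 for 16 of the 38, beside 3.13%, and without BM-MSC replicate 3 for 6, beside 3.16%. Limma called 0 of the 38, beside 6.08% of all probe sets, and gave 8 at an unadjusted p under 0.05, beside 21.1% in either direction, all lower in AD-MSC, beside 9.51%. AD-MSC lay wholly below BM-MSC for 12 of the 38, beside 11.6% of all probe sets, and wholly above for 0, beside 14%. MX1 differed by -3.08 ± 0.89 (8.43-fold, adjusted p = 0.0860), CMPK2 by -1.70 ± 0.50 (adjusted p = 0.0909) and IFI44L by -3.09 ± 1.03 (adjusted p = 0.129). IRF9 differed by -1.34 ± 0.46 (adjusted p = 0.137), ISG15 by -2.35 ± 0.88 (adjusted p = 0.171) and IFI44 by -2.41 ± 0.90 (adjusted p = 0.171). CXCL10 differed by -4.29 ± 1.82 (adjusted p = 0.224) and HERC5 by -1.24 ± 0.53 (adjusted p = 0.228). With BM-MSC replicate 3 left out the difference was -1.73 for IFI44L, -0.73 for IRF9, -1.15 for IFI44, -1.71 for CXCL10 and -0.50 for HERC5.

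Without BM-MSC replicate 3, 14 of the 38 changed sign in this comparison, among them PARP9, IFI35, OAS2 and SAMD9. The share of all probe sets that changed sign was not counted, here or in EA-ADSC against BM-MSC. The mean was lower in AD-MSC for 21 of the 38, or 55.3%, beside 45.7% of all probe sets, with a median of -0.09, beside 0.03. Limma called 4 of the 38, beside 3.25% of all probe sets, 3 of them lower in AD-MSC, beside 1.87%, and 1 higher, beside 1.39%. MX1 was lower in AD-MSC by -1.86 ± 0.36 (3.64-fold, adjusted p = 0.0391), CMPK2 by -1.0 ± 0.18 (adjusted p = 0.0307) and ISG15 by -1.10 ± 0.20 (adjusted p = 0.0343), while USP18 was higher by 3.14 ± 0.48 (8.79-fold, adjusted p = 0.0182). AD-MSC lay wholly below BM-MSC replicates 1 and 2 for 12 genes, beside 15.3% of all probe sets, among them DDX58, OAS3, IRF7, IRF9, IFI44, IFI44L and CXCL10. It lay wholly above them for SAMD9, USP18, PARP9, PARP14 and IFI35. These make 5 of the 38, or 13.2%, beside 17.7% of all probe sets, so the share is no larger than the background. These 5 genes are also among the 11 in which EA-ADSC lay wholly below AD-MSC, a comparison that shares the AD-MSC arrays.

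With the 3 groups tested together, limma's F test called 0 of the 38 genes, beside 7.48% of all probe sets, and gave 9 at an unadjusted p under 0.05, beside 22.5%. Without BM-MSC replicate 3 it called 8, beside 5.16%: OAS1, SAMD9, CMPK2, ISG15, USP18, PARP9, IFI44 and IFI35.

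Of 6 interferon ligands listed, 3 were measured. IFNB1, the type I interferon made by most cell types, was at 3.55, 2.97 and 3.27 in EA-ADSC, at 4.17, 3.30 and 3.61 in AD-MSC and at 3.24, 3.28 and 3.08 in BM-MSC. IFNG, interferon gamma, was at 2.70, 2.61 and 2.63 in EA-ADSC, at 3.08, 2.30 and 2.68 in AD-MSC and at 2.65, 2.82 and 4.35 in BM-MSC. The IFNG value of BM-MSC replicate 3 was the highest of the 9 by 1.62 over the other BM-MSC arrays, with all 9 below the median of all values, IFNB1 was not highest there, and the third measured ligand, IFNK, stayed between 2.53 and 2.92. None of the 3 passed limma's test in any comparison.

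Receptor and kinase genes were tested as a list of 10, of which 8 were measured. In EA-ADSC against BM-MSC 3 of the 8 fell, beside 0.465% of all probe sets on that side, and 0 rose. IFNAR2, the ligand-binding type I receptor chain, was at 4.97, 4.64 and 4.74 in EA-ADSC, at 5.10, 5.12 and 5.21 in AD-MSC and at 5.82, 5.89 and 6.39 in BM-MSC, a difference EA-ADSC minus BM-MSC of -1.25 ± 0.17 (2.38-fold, adjusted p = 0.0179). IFNGR2, the signalling chain of the interferon gamma receptor, was at 3.92, 3.53 and 4.79 in EA-ADSC, at 6.43, 5.94 and 6.51 in AD-MSC and at 6.16, 6.29 and 6.48 in BM-MSC. Its difference was -2.23 ± 0.31 against BM-MSC (4.68-fold, adjusted p = 0.0185) and -2.21 ± 0.31 against AD-MSC (4.64-fold, adjusted p = 0.00471). EA-ADSC arrays lay below all others for both receptor chains, but for IFNAR2 the difference from AD-MSC, -0.36, did not pass limma's test (adjusted p = 0.272).

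STAT3, a factor used by many cytokine receptors, was lower in EA-ADSC than in BM-MSC by -0.83 ± 0.11 (1.78-fold, adjusted p = 0.0162). Without BM-MSC replicate 3 the adjusted p in this comparison was 0.0348 for IFNAR2, 0.0701 for IFNGR2 and 0.0621 for STAT3. In EA-ADSC against AD-MSC 3 of the 8 fell and 1 rose, beside 6.92% of all probe sets in either direction. JAK1 was at 7.60, 7.72 and 7.75 in EA-ADSC, at 9.05, 8.62 and 9.14 in AD-MSC and at 8.02, 7.98 and 7.94 in BM-MSC, lower in EA-ADSC than in AD-MSC by -1.25 ± 0.15 (2.37-fold, adjusted p = 0.00258). IFNAR1, the signalling chain of the type I receptor, was lower by -1.48 ± 0.36 (2.78-fold, adjusted p = 0.0473, and 0.0672 without BM-MSC replicate 3), and IFNGR1 was higher by 0.66 ± 0.13 (1.58-fold, adjusted p = 0.0202). Between the untreated cells, JAK1 was higher in AD-MSC than in BM-MSC (adjusted p = 0.00875, and 0.0381 without BM-MSC replicate 3). IFNAR2 was lower in AD-MSC (adjusted p = 0.0212, and 0.0460 without that array), as was IFNGR1 (adjusted p = 0.0250, and 0.0657 without that array).

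The 17 measured genes that induce interferon, such as TLR3, TBK1 and IRF3, gave 0 calls in any of the 3 comparisons by limma. The shares of all probe sets were 0.815% for EA-ADSC against BM-MSC, 6.92% for EA-ADSC against AD-MSC and 6.08% for AD-MSC against BM-MSC. Of the 17, 4 were highest on BM-MSC replicate 3, beside 8% of all probe sets. Without that array TLR3, a sensor of double-stranded RNA, was called lower in EA-ADSC than in AD-MSC (adjusted p = 0.0426). This was 1 of the 17, beside 2.76% of all probe sets on that side. Among 8 negative regulators, PTPN2, a phosphatase that acts on JAK and STAT proteins, was higher in AD-MSC than in BM-MSC (adjusted p = 0.0460, and 0.123 without BM-MSC replicate 3), and the list gave 0 other calls.

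A list of 43 further interferon-induced genes, of which 32 were measured, showed the same array as the 38. A bone marrow array was already known to be high in such genes, so the list is not separate support. BM-MSC replicate 3 was the highest array for 22 of the 32, beside 8% of all probe sets. It lay more than 1 above the other BM-MSC arrays for 19, beside 2%, with a median gap of 1.91. The median difference EA-ADSC minus BM-MSC was -0.99, and -0.16 without that array. Limma called 0 of the 32 in this comparison, beside 0.815% of all probe sets. DDX60, a helicase that aids RNA sensors, was at 3.80, 3.80 and 3.27 in EA-ADSC, at 3.25, 3.59 and 3.90 in AD-MSC and at 5.18, 5.65 and 9.46 in BM-MSC. It was the single gene of the list called between EA-ADSC and BM-MSC without BM-MSC replicate 3, lower in EA-ADSC. The widest gaps of that array in the list, named after their values were seen, were 7.71 for CXCL9, 6.79 for CXCL11 and 6.36 for GBP5 on the log2 scale. CXCL9 and CXCL11 are chemokines that bind CXCR3, GBP5 is a guanylate-binding protein, and CXCL9 and CXCL11 lay below the median of all values on the other 8 arrays.

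Not every interferon-induced gene took part in this pattern. IFI27, a mitochondrial protein widely used as a marker of type I interferon exposure, was at 11.60, 11.67 and 11.55 in EA-ADSC, at 11.04, 10.84 and 10.86 in AD-MSC and at 11.46, 11.50 and 11.47 in BM-MSC. It was the gene of the list that rose in EA-ADSC against AD-MSC, by 0.69 (1.62-fold, adjusted p = 0.00767), and it was lower in AD-MSC than in BM-MSC (adjusted p = 0.0206, and 0.0701 without BM-MSC replicate 3). BM-MSC replicate 3 was level with the other BM-MSC arrays for this gene. IRF2, a repressor that competes with IRF1, fell in EA-ADSC against AD-MSC by -1.24 (2.37-fold, adjusted p = 0.0210). In the fit without BM-MSC replicate 3, 7 of the 32 were lower in EA-ADSC than in AD-MSC, beside 2.76% of all probe sets. These were PSMB8, PSMB9, TAP2, GBP6, SAMD9L, LY6E and IRF2, while IFI27 was higher, beside 2.81%. In AD-MSC against BM-MSC the same fit called PSMB9, GBP6 and SAMD9L higher, beside 1.39%, and DDX60 lower, beside 1.87%.

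Markers of stromal cells and of other cells that marrow, fat or blood could bring into a culture were read beside these values. The 10 stromal markers averaged 9.29 to 9.67 on the EA-ADSC arrays, 8.50 to 8.72 on the AD-MSC arrays and 9.78 to 9.93 on the BM-MSC arrays, and COL1A1 lay at 7.38 or above on all 9. The T and NK lymphocyte list of 15 averaged 3.96 to 4.13 on the EA-ADSC arrays, 3.81 to 4.02 on the AD-MSC arrays, 3.98 and 4.03 on BM-MSC replicates 1 and 2 and 4.73 on BM-MSC replicate 3. On that array 9 of the 15 had their highest value, beside 8% of all probe sets. There 6 of the 15 lay more than 1 above the other BM-MSC arrays, beside 2%. The markers CD247, ZAP70, PRF1, CD8A and CD4, named after their values were seen, had gaps from -0.20 to 0.08. CD3E, a chain of the T cell receptor complex, was at 3.72, 3.73 and 3.55 in EA-ADSC, at 3.89, 3.77 and 4.06 in AD-MSC and at 4.0, 3.95 and 5.86 in BM-MSC.

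**Figure D5:**
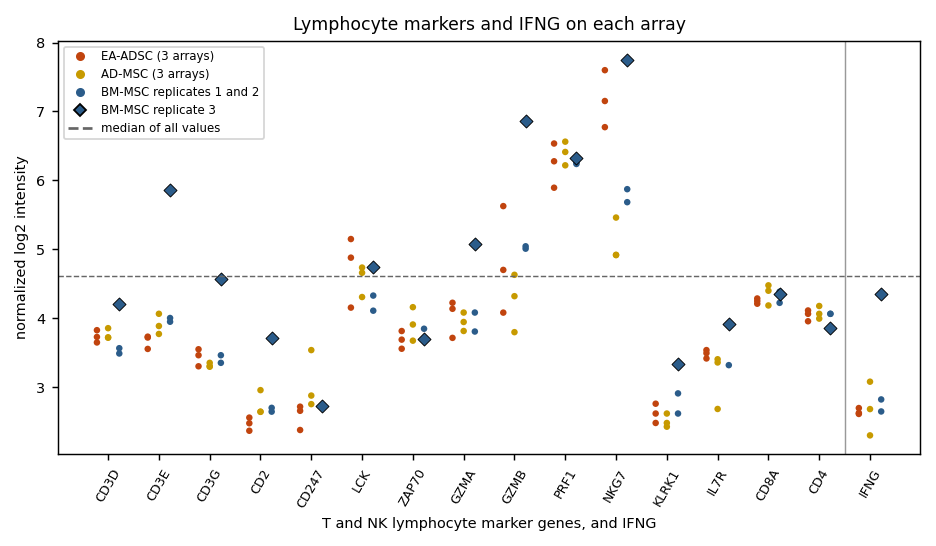
Normalized log2 intensity (vertical axis) of the 15 T and NK lymphocyte markers and IFNG (columns) on the 9 arrays. BM-MSC replicate 3 is shown as diamonds and the median of all values as a dashed line. The diamond is the highest point for 9 of the 15 markers.

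Of the other lists, BM-MSC replicate 3 was highest for 2 of 7 pan-leukocyte, 2 of 10 stromal, 1 of 10 monocyte and macrophage, 1 of 8 dendritic, 1 of 5 neutrophil and 1 of 3 erythroid and platelet markers, and for 0 of 6 B lymphocyte and 0 of 6 endothelial markers, beside 8% of all probe sets. The monocyte list averaged 5.71 on BM-MSC replicate 1, against 4.70 on replicate 2 and 4.75 on replicate 3. PTPRC, the pan-leukocyte antigen CD45, was at 3.10, 3.21 and 3.01 in EA-ADSC, at 3.53, 2.57 and 3.33 in AD-MSC and at 4.02, 3.38 and 4.51 in BM-MSC, on all arrays below the median of all values. IFNG and 6 of the 15 T and NK markers thus lay more than 1 above the other BM-MSC arrays on BM-MSC replicate 3. So did ARHGDIB of the pan-leukocyte list, by 1.63, and HBB of the erythroid and platelet list, by 1.21. The part of these genes in the result was not tested.

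Some markers also differed between the groups, and those below were named after their values were seen. ARHGDIB, a cytoplasmic protein abundant in leukocytes, was at 10.47, 9.09 and 11.23 in EA-ADSC, at 5.03, 5.50 and 4.96 in AD-MSC and at 6.48, 5.92 and 7.83 in BM-MSC. It was higher in EA-ADSC than in AD-MSC (34.2-fold, adjusted p = 0.00234) and than in BM-MSC (11.5-fold, adjusted p = 0.0424). ARHGDIB was the single call among the 7 measured pan-leukocyte markers in both comparisons. All others of that list had a lower mean in EA-ADSC than in BM-MSC. The list's median difference was -0.86 for EA-ADSC minus BM-MSC and -0.04 for EA-ADSC minus AD-MSC. NKG7, a granule protein of NK and T cells, was at 6.77, 7.60 and 7.15 in EA-ADSC, at 5.46, 4.92 and 4.92 in AD-MSC and at 5.68, 5.87 and 7.75 in BM-MSC. It was higher in EA-ADSC than in AD-MSC by limma (4.21-fold, adjusted p = 0.0468). NKG7 was the single call among the 15 T and NK markers in that comparison, and the list's median difference was -0.03. FCER1G, an adaptor of Fc receptors in myeloid cells, was lower in EA-ADSC than in AD-MSC (6.27-fold, adjusted p = 0.0193) and than in BM-MSC (12.1-fold, adjusted p = 0.0206, and 0.0684 without BM-MSC replicate 3). Of the 10 stromal markers 5 were called higher in EA-ADSC than in AD-MSC, beside 6.92% of all probe sets in either direction. In AD-MSC 6 of the 10 were called lower than in BM-MSC, beside 3.25%. Limma also called TYROBP of the monocyte list lower in AD-MSC (5.58-fold, adjusted p = 0.0132, and 0.0304 without BM-MSC replicate 3). So it did CORO1A of the pan-leukocyte list (1.74-fold, adjusted p = 0.0333, and 0.107 without that array). Each was the single call of its list in that comparison, among 10 and 7 measured markers. The part of these markers in the differences of the interferon-stimulated genes was not tested.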

How the data were processed

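The authors deposited normalized log2 intensities, 1 for each of 30559 probe sets on 9 arrays. The tools are, per the submitters' processing notes, Affymetrix Expression Console, Transcriptome Analysis Console 3 and Partek 6.16.0419. How values were summarized and normalized, and on which build, was not stated there. Values were used as deposited. Genes were named from the platform annotation, in which 16789 probe sets have 1 gene, 343 have several and 13427 have none. Per the labels' protocols, 100 ng of total RNA was amplified.

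A group-means model over all 9 arrays was fitted with lmFit and eBayes of limma 3.58.1 in R 4.3.3 (6 residual degrees of freedom), tested on simulated data. Contrasts were tested two-sided and the 3 groups together by the moderated F test, with Benjamini-Hochberg adjustment over all probe sets and a threshold of 0.05. A gene's groups were called non-overlapping when all arrays of one lay on one side of all arrays of the other.

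The members and all lists were chosen with earlier results of these data known. Those results had shown a bone marrow array high in such genes. Values on every array were given for genes past the threshold in a comparison, the 8 with the smallest p per comparison, and the widest per role and 4 narrowest patterns. From each pathway list the called genes and up to 3 with the smallest p per comparison could be named. The labels name different horses for BM-MSC and EA-ADSC and none for AD-MSC, so replicate numbers were not taken to pair samples. For AD-MSC the labels cannot settle this. Residuals of same-numbered arrays of different groups correlated at -0.02 to 0.12, and those of differently numbered arrays at -0.12 to 0.04. No label says whether AD-MSC arrays were run together with the others. Alternatives are listed with their effect in the closing section.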

Additional observations from a re-analysis of the deposited data

How the results depend on the processing

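Counts of called probe sets depended on the fit. For EA-ADSC against BM-MSC the 249 calls over all probe sets became 744 with array weights, 479 without dim probe sets and 86 to 384 when single arrays were left out. For EA-ADSC against AD-MSC the 2116 calls became 1029 with these groups fitted alone and 1176 to 2037 when single arrays were left out, and for AD-MSC against BM-MSC 1857 became 849 to 2012. Interferon-stimulated genes called in EA-ADSC against AD-MSC numbered 0 with array weights, 4 with these groups alone and 0 to 7 when single arrays were left out, in AD-MSC against BM-MSC 0 to 4, and by the F test 1 without dim probe sets and 0 to 8 when single arrays were left out. In EA-ADSC against BM-MSC the count was 0 under every alternative run, which also included quantile normalization, median centring, limma-trend and leaving out RIGI, the last added after seeing the data. The highest of these counts, 7, 4 and 8, came without BM-MSC replicate 3. Without that array the median difference EA-ADSC minus BM-MSC was -0.48 (range over single arrays left out -1.85 to -0.48), the median SD in BM-MSC was 0.14 (0.14 to 1.73), and the arrays of EA-ADSC lay wholly above BM-MSC for 1 gene and those of AD-MSC for 5, a count also added after seeing the data. Without dim probe sets 22 genes were highest on BM-MSC replicate 3, because 24 of the 38 were kept. With the replicate number as a block, as samples share only a number, 263, 1625 and 1492 probe sets were called in EA-ADSC against BM-MSC, EA-ADSC against AD-MSC and AD-MSC against BM-MSC, and 0, 1 and 0 of the genes. The USP18 call in EA-ADSC against AD-MSC was lost under 6 alternatives, which the report names, and without BM-MSC replicate 3 the sign changed for 4 of the 38 genes in EA-ADSC against BM-MSC and for 14 in AD-MSC against BM-MSC, but under no alternative run for the 8 with the smallest p in each comparison. A count stayed if it was within 1.5 times, and a median SD if it was within the spread of SDs over the genes. A median difference stayed if it kept its sign and shifted by less than 0.82, the genes' median pooled SD. That SD includes BM-MSC replicate 3. The AD-MSC minus BM-MSC median, -0.81 and without that array -0.09, thus counted as having stayed. By these rules 176 of the recomputed counts and medians stayed and 32 moved. The cause of these shifts was not tested, except that fewer arrays or probe sets were fitted. Averaging a gene's probe sets gave no other value, since each gene had 1, and the search for promoter motifs was not run.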
